A study of Mus musculus with 6 samples.

Results

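Endothelial cell genes, those that mark the cells lining blood and lymph vessels, were followed through 6 expression arrays of mouse ovarian granulosa cells. The 36 genes were named by symbol: adhesion molecules, receptors, secreted proteins and transcription factors that are textbook endothelial markers. They were chosen with earlier results of these data known. Counts of them beside all genes therefore describe these arrays and are not an independent test. Each was read from the probe set with the highest mean intensity among those whose annotation gave it as the single gene, and all 36 had one, out of 18193 genes measured on the same arrays. There were 3 groups of 2 arrays. The first group was dKO at 2 months of age and the next was dKO at day 25, both with the genotype Foxo1 f/-;Foxo3 f/-; Amhr2-cre, that is, 1 floxed and 1 null allele of each gene, with Cre made from the Amhr2 locus, which is active in granulosa cells. The comparison group was wild type at day 25. All animals had a mixed FVB and C57BL/6 background. The labels do not say whether animals were pooled or whether replicates were separate animals, and wild type at 2 months was not analysed here, so age and genotype cannot be told apart in any difference of dKO at 2 months from wild type. The p-values measure the spread between these arrays, which may be technical.

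Within the follicle, granulosa cells lie inside a basal lamina and have no vessels of their own. Blood and lymph vessels run through the theca layer outside it and through the stroma, and they grow into the follicle wall after ovulation, when the corpus luteum forms. Endothelial cells are held together by VE-cadherin, claudin and PECAM1, and they read growth signals through the VEGF receptors and the TIE receptors. ETS and SOX factors maintain their identity.

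Foxo1, a targeted gene, had intensities of 126 and 343 on the dKO arrays at 2 months and of 904 and 2291 on the dKO arrays at day 25, against 10319 and 7666 on the wild-type arrays. Foxo3 had 2484 and 1872 in dKO at 2 months and 2539 and 3279 in dKO at day 25, against 1632 and 1342 in wild type, and which part of that gene its probe set reads relative to the deletion is not given in the sources used here. Genes of granulosa cells were bright on every array: the summed intensity of 11 measured markers, Foxl2, Inhba and Hsd17b1 among them, was 140268 and 123925 in dKO at 2 months and 136127 and 124449 in dKO at day 25, against 117240 and 125752 in wild type. The array of dKO 2-month replicate 1 stood apart from the rest. Across all probe sets its correlation with the other arrays was between 0.964 and 0.978, while the other 5 arrays had between 0.982 and 0.992 with each other. Counts and medians of the endothelial genes, and the values of several of them, are given with and without it.

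The windows upstream of 4 members are shown, all with mean log2 values that were higher at each step. Robo4, Emcn and Tie1 had their larger step between dKO at day 25 and 2 months. Tek had its larger step between dKO at day 25 and wild type. The second step minus the first was 0.47 ± 0.27 (SE) for Robo4, 0.88 ± 0.94 for Emcn, 0.32 ± 0.69 for Tie1 and -0.91 ± 0.71 for Tek. Only Robo4 of these kept its arrays in order with no overlap at either step. They are the 250 bases before each gene's annotated start, from RefSeq on GRCm38.p6, read 5′ to 3′ on the gene's strand. The positions are chr9:37401722-37401971, plus strand for Robo4, chr3:137340828-137341077, plus strand for Emcn, chr4:118489850-118490099, minus strand for Tie1 and chr4:94739039-94739288, plus strand for Tek. Capitals mark matches, on either strand, to AGGAAG, a core bound by ETS factors, or to ACAATNG, a core bound by SOX factors.
Robo4: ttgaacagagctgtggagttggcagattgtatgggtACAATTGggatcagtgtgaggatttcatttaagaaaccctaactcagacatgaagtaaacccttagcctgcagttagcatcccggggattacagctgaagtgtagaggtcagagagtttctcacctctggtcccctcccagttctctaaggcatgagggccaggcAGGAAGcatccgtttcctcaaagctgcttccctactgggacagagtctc
Emcn: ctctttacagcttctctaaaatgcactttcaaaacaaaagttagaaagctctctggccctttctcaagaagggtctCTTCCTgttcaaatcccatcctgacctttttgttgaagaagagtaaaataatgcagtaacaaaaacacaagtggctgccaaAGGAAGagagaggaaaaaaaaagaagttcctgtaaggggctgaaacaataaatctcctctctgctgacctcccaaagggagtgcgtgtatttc
Tie1: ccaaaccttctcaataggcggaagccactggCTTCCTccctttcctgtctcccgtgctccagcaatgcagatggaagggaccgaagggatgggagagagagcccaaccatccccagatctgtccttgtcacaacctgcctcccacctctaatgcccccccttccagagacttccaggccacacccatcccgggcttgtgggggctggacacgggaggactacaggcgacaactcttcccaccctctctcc
Tek: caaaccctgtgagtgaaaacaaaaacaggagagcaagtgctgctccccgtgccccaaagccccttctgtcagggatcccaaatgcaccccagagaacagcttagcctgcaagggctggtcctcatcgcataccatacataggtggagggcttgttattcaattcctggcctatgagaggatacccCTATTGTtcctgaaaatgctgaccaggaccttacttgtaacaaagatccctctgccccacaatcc

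Robo4 held 1 match to the ETS core and 1 to the SOX core, Emcn held 2 ETS matches, Tie1 held 1 ETS match and Tek held 1 SOX match, with no overlap between the letters of different motifs. RefSeq gave such windows for 19 of the 36 members, 24 windows in all. An ETS match stood in 12 of the 24 windows, from 11 genes, and in 29.5% of all 32851 windows of the genome. A SOX match stood in 3 of the 24, from Clec14a, Robo4 and Tek, and in 6.91% of all windows. The GATA core AGATAA stood in 3, from Erg, Myct1 and Tal1, and in 9.99% of all windows. The forkhead core GTAAACA, the kind of sequence to which FOXO factors bind, stood in 0 of the 24 windows and in 3.17% of all windows. These counts describe letters in a short window. Some windows belong to the same gene, and binding was not measured.

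Endothelial genes had higher mean levels in dKO granulosa cells than in wild type, with a larger median difference at 2 months than at day 25. Between dKO at 2 months and wild type, the median log2 difference over the 36 members was 1.01, against 0.04 over all genes. The mean of the log2 values, on which higher and lower are counted throughout, was higher for 35 members, where 55.0% of all genes were higher, and Esm1, a proteoglycan of sprouting endothelial tips that read 9 or 10 on every array, was level. Both dKO 2-month arrays lay above both wild-type arrays for 33 members, against 26.6% of all genes. In limma 27 members were higher with a p under 0.05 before adjustment and 0 were lower, against 9.54% of all genes higher. After Benjamini-Hochberg adjustment over 45037 probe sets 0 members passed 0.05, as did 0.0% of all genes, and the smallest adjusted p of a member was 0.123. Without dKO 2-month replicate 1 the median was 0.63, with 35 members higher by mean, against 59.6% of all genes. It was 0.87 without wild-type replicate 1 and 0.99 without wild-type replicate 2, again with 35 higher. Fewer than 27 members had an unadjusted p under 0.05 in each of these fits. In RNA from mixed cells, more endothelial cells and more RNA per endothelial cell cannot be told apart.

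**Figure D1:**
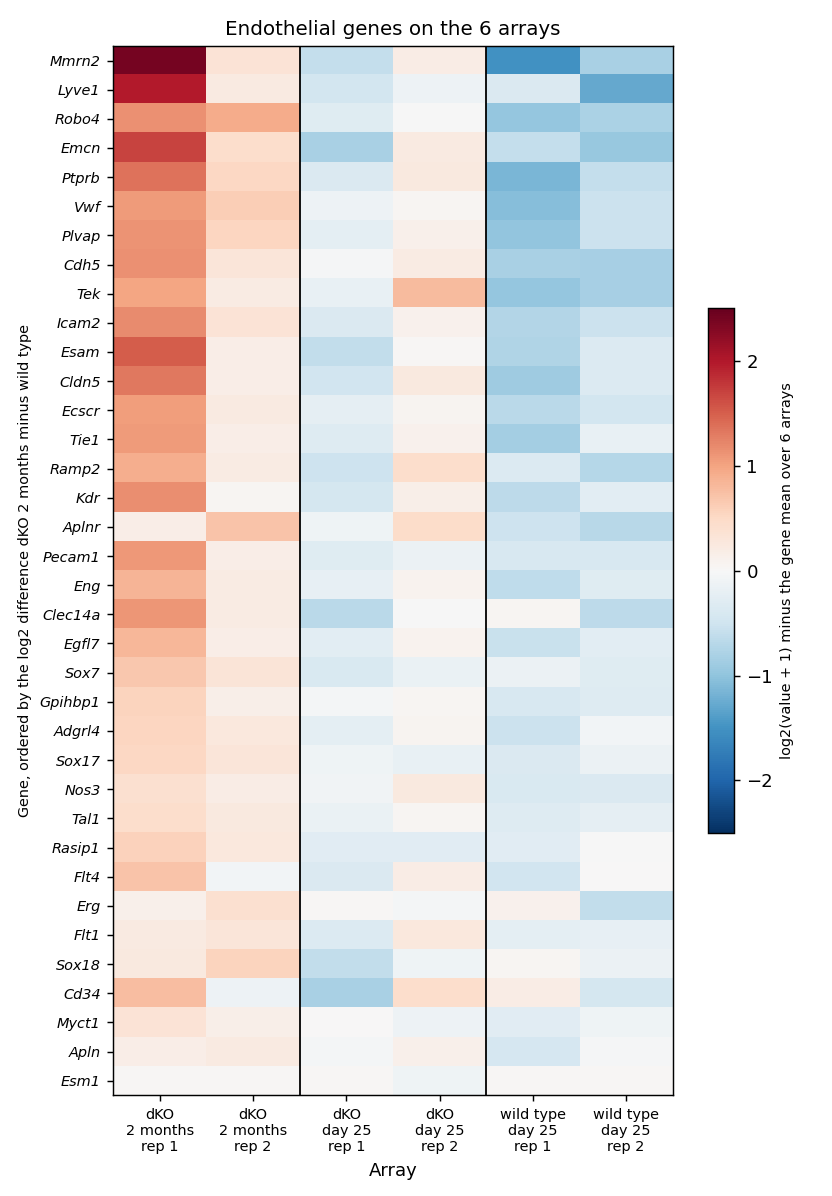
Heat map of the 36 endothelial genes (rows, ordered by the log2 difference of dKO 2 months minus wild type) on the 6 arrays (columns), coloured by log2(value + 1) minus the mean of that gene over the 6 arrays. The column of dKO 2-month replicate 1 is the reddest, with the highest value of 30 of the 36 genes, and both wild-type columns are mostly blue.

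At day 25 the same genes differed less between the genotypes. Between dKO and wild type at that age the median log2 difference was 0.34, against 0.03 over all genes. Several lists of markers of other cells had larger medians in this comparison, given below. The mean log2 value was higher for 30 members, against 54.7% of all genes, and 6 were lower: Cd34, Clec14a, Esm1, Rasip1, Sox7 and Sox18. For Cd34 the scale decides this, since its log2 difference was -0.06 while its mean intensity was 267.0 in dKO and 260.0 in wild type. Both dKO arrays lay above both wild-type arrays for 16 members, against 26.4% of all genes. With a p under 0.05 before adjustment 6 members were higher, Aplnr, Cdh5, Nos3, Robo4, Tek and Vwf, and 0 lower, against 4.89% of all genes higher. In limma 0 members passed after adjustment, against 0.0% of all genes, with a smallest adjusted p of 0.482. Leaving out dKO day 25 replicate 2 gave a median of 0.16, and leaving out replicate 1 of that group gave 0.57. It was 0.25 without wild-type replicate 1 and 0.45 without wild-type replicate 2. Fewer than 6 members were higher at an unadjusted p under 0.05 in each of these fits. The share of all genes at that p in them is not given here.

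Between dKO at 2 months and dKO at day 25, the median log2 difference was 0.66, against 0.02 over all genes. All 36 members had a higher mean at 2 months, against 52.8% of all genes. Both 2-month arrays lay above both day 25 arrays for 26 members, against 19.7% of all genes. Before adjustment 10 members had a p under 0.05 and a higher level, and 0 a lower one, against 3.73% of all genes higher: Icam2, Pecam1, Plvap, Rasip1, Robo4, Sox17, Sox18, Sox7, Tal1 and Vwf. In limma 0 passed after adjustment, against 0.0% of all genes, with a smallest adjusted p of 0.712. The median was 0.35 without dKO 2-month replicate 1, with 35 members higher, against 53.3% of all genes. It was 0.95 without dKO 2-month replicate 2 and 0.5 without dKO day 25 replicate 1. How many members had an unadjusted p under 0.05 depended on which array was left out. This comparison shares the dKO day 25 arrays with the one before it, so a low value there raises one difference and lowers the other.

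Among the receptors, Robo4, a roundabout receptor that steadies vessels, had the smallest p of the 36 genes between dKO at 2 months and wild type. The mean intensity was 178.5 ± 19.1 in dKO at 2 months and 78.0 ± 11.3 in dKO at day 25, against 47.0 ± 4.24 in wild type (SD, n = 2 each). The array values were 192 and 165 in dKO at 2 months and 70 and 86 in dKO at day 25, against 44 and 50 in wild type. The 3 groups did not overlap, and the replicates lay close together in each. The log2 difference of dKO at 2 months from wild type was 1.90 ± 0.16 (SE), a 3.74-fold difference on the log2(value + 1) scale, adjusted p = 0.123 in limma. Between dKO at day 25 and wild type it was 0.71 ± 0.16, adjusted p = 0.482, and between the dKO ages 1.19 ± 0.16, adjusted p = 0.712. Without dKO 2-month replicate 1 the difference from wild type was 1.79.

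The VEGF receptors had wider spread relative to their differences. Kdr, the main receptor for VEGFA, had 544 and 250 in dKO at 2 months and 178 and 268 in dKO at day 25, against 154 and 202 in wild type. The high value was that of dKO 2-month replicate 1, and replicate 2 of that group lay below the higher day 25 dKO array. Between dKO at 2 months and wild type the log2 difference was 1.06 ± 0.43 (SE), adjusted p = 0.398, and it was 0.50 without replicate 1 of that group. Flt1, the receptor that also serves as a decoy for VEGF, had 90 and 95 in dKO at 2 months and 60 and 92 in dKO at day 25, against 65 and 66 in wild type. Its difference from wild type at 2 months was 0.49 ± 0.22, adjusted p = 0.417, and 3 other Flt1 probe sets gave 1.22, 0.37 and 0.20. Flt4, the VEGFC receptor of lymphatic vessels, had 363 and 211 in dKO at 2 months and 172 and 252 in dKO at day 25, against 158 and 224 in wild type, so its groups overlapped in every comparison.

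The TIE receptors differed in the order of their arrays. Tek, also called TIE2, had 195 and 113 in dKO at 2 months and 86 and 168 in dKO at day 25, against 49 and 54 in wild type. All 4 dKO arrays were above wild type, and the 2 dKO ages overlapped. Set against wild type, its log2 difference was 1.51 ± 0.41 (SE) at 2 months, adjusted p = 0.305, and 1.21 ± 0.41 at day 25, adjusted p = 0.580. Between the dKO ages it was 0.30 ± 0.41, adjusted p = 0.843, and -0.09 without dKO 2-month replicate 1. Tie1, its partner receptor, had 94 and 50 in dKO at 2 months and 35 and 48 in dKO at day 25, against 24 and 39 in wild type. The 2-month arrays were above all others, while at day 25 the genotypes overlapped, and the difference from wild type at 2 months was 1.14 ± 0.40, adjusted p = 0.358, and 0.69 without dKO 2-month replicate 1. Ptprb, the phosphatase that restrains TEK, had 379 and 212 in dKO at 2 months and 114 and 176 in dKO at day 25, against 66 and 97 in wild type, with no overlap between the 3 groups.

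The remaining receptors also had higher means in dKO at 2 months than in wild type. Eng, the TGF-beta co-receptor endoglin, had 417 and 266 in dKO at 2 months and 199 and 246 in dKO at day 25, against 148 and 187 in wild type, and its groups did not overlap. Aplnr, the apelin receptor, had 685 and 1009 in dKO at 2 months and 568 and 847 in dKO at day 25, against 427 and 379 in wild type. Aplnr was thus above wild type on all 4 dKO arrays, with the dKO ages overlapping. Ramp2, the partner of the adrenomedullin receptor, had 672 and 410 in dKO at 2 months and 249 and 483 in dKO at day 25, against 282 and 218 in wild type. Clec14a, a lectin-like receptor, had 211 and 114 in dKO at 2 months and 61 and 97 in dKO at day 25, against 101 and 62 in wild type. For both of these the genotypes overlapped at day 25. Adgrl4, an adhesion receptor, had 98 and 81 in dKO at 2 months and 57 and 71 in dKO at day 25, against 46 and 64 in wild type. In all, 12 of 12 receptors had a higher mean at 2 months than in wild type, and 8 had an unadjusted p under 0.05, against 55.0% and 9.54% of all genes.

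**Figure D2:**
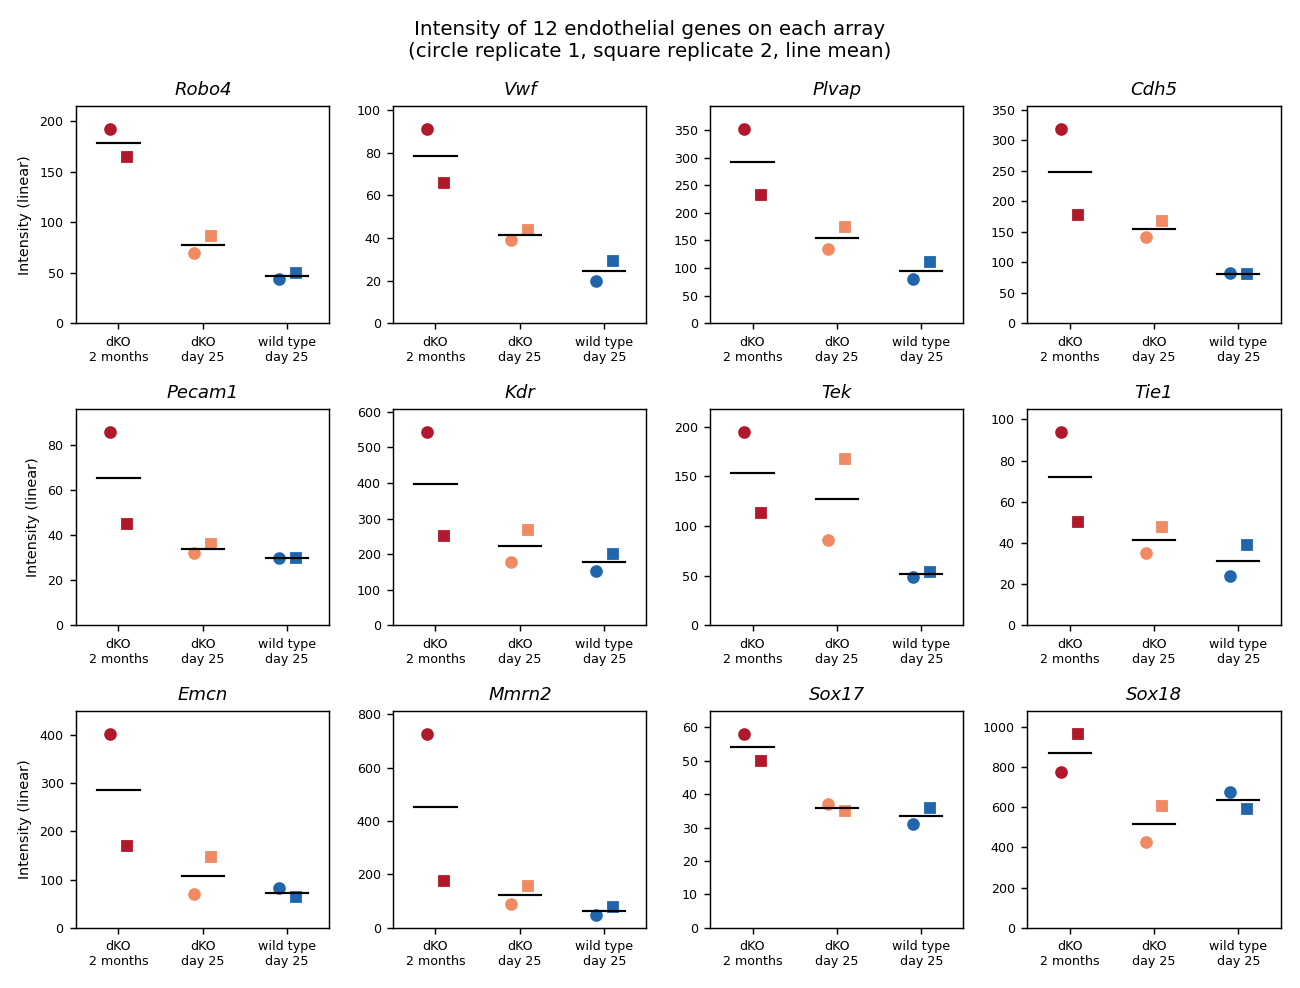
Linear intensity of 12 endothelial genes on each array, by group, with circles for replicate 1, squares for replicate 2 and a line at the mean. For Robo4, Vwf, Plvap, Cdh5, Pecam1 and Mmrn2 the 3 groups do not overlap, while for Kdr and Tek the dKO ages do, and Sox18 has its lowest array in dKO at day 25.

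Junction and surface glycoproteins had a median difference of 1.39 on the log2 scale over 7 genes between dKO at 2 months and wild type, with 6 of the 7 higher at an unadjusted p under 0.05, against 9.54% of all genes. Cdh5, the VE-cadherin of endothelial junctions, had 318 and 177 in dKO at 2 months and 142 and 167 in dKO at day 25, against 82 and 81 in wild type. Its 3 groups did not overlap. Set against wild type, its log2 difference was 1.53 ± 0.29 (SE) at 2 months, adjusted p = 0.226, and 0.91 ± 0.29 at day 25, adjusted p = 0.566. Between the dKO ages it was 0.62 ± 0.29, adjusted p = 0.712, and 0.20 without dKO 2-month replicate 1. Another Cdh5 probe set, dim at 12 to 19 on all arrays, gave 0.31 between dKO at 2 months and wild type. Pecam1, the platelet and endothelial adhesion molecule CD31, had 86 and 45 in dKO at 2 months and 32 and 36 in dKO at day 25, against 30 and 30 in wild type. It was dim, and the day 25 groups were separated by 2 intensity units, and its log2 difference between dKO at 2 months and wild type was 1.03 ± 0.31, adjusted p = 0.331, and 0.57 without dKO 2-month replicate 1. The difference was 0.17 ± 0.31 at day 25, adjusted p = 0.909, and 0.86 ± 0.31 between the dKO ages, adjusted p = 0.712.

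Emcn, the sialomucin endomucin of veins and capillaries, had 402 and 169 in dKO at 2 months and 70 and 146 in dKO at day 25, against 82 and 64 in wild type. Both 2-month arrays were above all others, by a wide margin for replicate 1. The log2 difference of dKO at 2 months from wild type was 1.83 ± 0.54 (SE), adjusted p = 0.325, and 1.21 without that replicate. At day 25 it was 0.48 ± 0.54, adjusted p = 0.845. Between the dKO ages it was 1.36 ± 0.54, adjusted p = 0.712, and 0.73 without that replicate. Esam, an adhesion molecule of tight junctions, had 894 and 349 in dKO at 2 months and 204 and 319 in dKO at day 25, against 184 and 246 in wild type. Cldn5, the claudin of endothelial tight junctions, had 597 and 266 in dKO at 2 months and 170 and 282 in dKO at day 25, against 128 and 188 in wild type. In both, the high value was that of dKO 2-month replicate 1, with replicate 2 close to dKO day 25 replicate 2, and without replicate 1 the difference from wild type was 0.71 for Esam and 0.77 for Cldn5. Icam2, a ligand of leukocyte integrins, had 173 and 96 in dKO at 2 months and 59 and 81 in dKO at day 25, against 45 and 52 in wild type, without overlap. Cd34, a sialomucin that stromal and blood-forming cells also carry, had 475 and 254 in dKO at 2 months and 158 and 376 in dKO at day 25, against 316 and 204 in wild type, and it overlapped in every comparison.

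Of the secreted and matrix proteins, Vwf, the clotting factor stored by endothelial cells and platelets, had 91 and 66 in dKO at 2 months and 39 and 44 in dKO at day 25, against 20 and 29 in wild type. Its 3 groups did not overlap. Against wild type the log2 difference was 1.65 ± 0.24 (SE) at 2 months, adjusted p = 0.177, and 0.76 ± 0.24 at day 25, adjusted p = 0.566. The difference between the dKO ages was 0.89 ± 0.24, adjusted p = 0.712. Mmrn2, a matrix protein that endothelial cells secrete, had 726 and 176 in dKO at 2 months and 91 and 158 in dKO at day 25, against 48 and 78 in wild type. Its log2 difference between dKO at 2 months and wild type was 2.53, the largest of the 36 genes with all arrays, which is named here after its values were seen. That value rests on dKO 2-month replicate 1, which was 4.12 times replicate 2, and without that array it was 1.51, below the 1.79 of Robo4. With all arrays its other 3 probe sets gave 1.01, 1.89 and 2.12 for the same difference. Egfl7, an angiogenic factor of the vessel wall, had 610 and 381 in dKO at 2 months and 285 and 360 in dKO at day 25, against 232 and 282 in wild type, also without overlap. Apln, the ligand of APLNR, had 106 and 110 in dKO at 2 months and 91 and 103 in dKO at day 25, against 70 and 93 in wild type, a narrow range.

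The 5 transcription factors had a median log2 difference of 0.62 between dKO at 2 months and wild type and of 0.10 between dKO at day 25 and wild type. Of these, 3 were higher with an unadjusted p under 0.05 in the first comparison, against 9.54% of all genes, and 0 in the second, against 4.89%. Sox17, a SOX factor of arterial endothelium, had 58 and 50 in dKO at 2 months and 37 and 35 in dKO at day 25, against 31 and 36 in wild type. The 2-month arrays were above the other 4, in which the genotypes overlapped. The difference from wild type at 2 months was 0.67 ± 0.13 (SE), adjusted p = 0.233, and its other probe set gave 1.38. Sox7, of the same subfamily, had 109 and 85 in dKO at 2 months and 52 and 60 in dKO at day 25, against 61 and 55 in wild type. Its difference was 0.72 ± 0.16 between dKO at 2 months and wild type, adjusted p = 0.261. It was 0.77 ± 0.16 between the dKO ages, adjusted p = 0.712, and -0.05 ± 0.16 between dKO at day 25 and wild type, adjusted p = 0.951. A dimmer Sox7 probe set gave -0.08 between the dKO ages and 0.23 at day 25.

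Sox18, the third member of that subfamily, had 774 and 964 in dKO at 2 months and 426 and 605 in dKO at day 25, against 676 and 592 in wild type. It was lower in dKO than in wild type by mean at day 25 and higher at 2 months, and its highest array was dKO 2-month replicate 2. Tal1, a factor shared by endothelial and blood-forming cells, had 45 and 39 in dKO at 2 months and 29 and 34 in dKO at day 25, against 26 and 28 in wild type, without overlap. Erg, an ETS factor, had 95 and 114 in dKO at 2 months and 89 and 84 in dKO at day 25, against 93 and 56 in wild type. The wild-type arrays of Erg lay farther apart than its group means.

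Genes of specialised endothelium were higher at 2 months than in wild type in 7 of 7 cases, each with an unadjusted p under 0.05, against 55.0% and 9.54% of all genes, and their median log2 difference was 0.71. Plvap, which builds the diaphragms of fenestrated capillaries, had 351 and 233 in dKO at 2 months and 135 and 175 in dKO at day 25, against 80 and 110 in wild type. The 3 groups did not overlap, and the difference from wild type was 1.60 ± 0.28 (SE) at 2 months, adjusted p = 0.215, and 0.71 ± 0.28 at day 25, adjusted p = 0.621. The difference between the dKO ages was 0.89 ± 0.28, adjusted p = 0.712. Lyve1, a hyaluronan receptor of lymphatic vessels that some macrophages also carry, had 652 and 190 in dKO at 2 months and 119 and 150 in dKO at day 25, against 127 and 67 in wild type. Both 2-month arrays of Lyve1 were above the rest, replicate 1 at 3.43 times replicate 2, and the difference from wild type was 1.03 without replicate 1. Gpihbp1, which anchors lipoprotein lipase on capillaries, had 117 and 88 in dKO at 2 months and 76 and 82 in dKO at day 25, against 60 and 63 in wild type, without overlap. Ecscr, a regulator of endothelial migration, had 232 and 131 in dKO at 2 months and 96 and 117 in dKO at day 25, against 70 and 81 in wild type, also without overlap.

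Signalling genes of the same group were closer in level. Nos3, the endothelial nitric oxide synthase, had 136 and 116 in dKO at 2 months and 96 and 121 in dKO at day 25, against 79 and 80 in wild type. All 4 dKO arrays of Nos3 were above wild type and the dKO ages overlapped. Rasip1, a RAS-interacting protein needed for vessel lumens, had 35 and 28 in dKO at 2 months and 19 and 19 in dKO at day 25, against 19 and 23 in wild type. Its difference was 0.69 ± 0.16 (SE) between the dKO ages, adjusted p = 0.712, and -0.13 ± 0.16 between dKO at day 25 and wild type, adjusted p = 0.854. Myct1 had 101 and 88 in dKO at 2 months and 80 and 73 in dKO at day 25, against 65 and 74 in wild type. The 9 members whose mean over the arrays was below the array median were Adgrl4, Esm1, Pecam1, Rasip1, Sox17, Sox7, Tal1, Tie1 and Vwf. Whether such dim genes were detected was not measured. Pecam1, Tal1 and Vwf are also among the genes whose 3 groups did not overlap.

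A stepwise order asks for mean log2 values that are lowest in wild type, higher in dKO at day 25 and highest in dKO at 2 months, and 30 of the 36 endothelial genes had it, against 25.8% of all genes. The exceptions were Cd34, Clec14a, Esm1, Rasip1, Sox18 and Sox7, whose mean log2 values at day 25 were lower in dKO than in wild type. For 13 genes the arrays kept the order with no overlap at either step, against 4.22% of all genes: Cdh5, Ecscr, Egfl7, Eng, Gpihbp1, Icam2, Mmrn2, Pecam1, Plvap, Ptprb, Robo4, Tal1 and Vwf. The second step, between the dKO ages, exceeded the first, between dKO at day 25 and wild type, by a median of 0.26 on the log2 scale, against 0.01 over all genes. Single genes ran from -0.91 for Tek to 1.08 for Sox18, with a median SE of 0.48. In limma 0 genes passed for the difference between the steps after adjustment, against 0.0% of all genes.

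At an unadjusted p under 0.05 the steps differed for 3 members, against 5.39% of all genes. These were Sox7 with 0.83 ± 0.28 (SE), Sox18 with 1.08 ± 0.38 and Rasip1 with 0.82 ± 0.27, all with an adjusted p of 0.853 and all without a higher level at day 25. The dKO day 25 arrays enter the steps with opposite sign, and replicate 2 read higher than replicate 1 there for 31 members. Without dKO day 25 replicate 1 the median difference between the steps was -0.09, and without replicate 2 it was 0.75. Without dKO 2-month replicate 1 it was -0.06, and without replicate 2 of that group 0.59. Without wild-type replicate 2 it was 0.13 and without wild-type replicate 1 it was 0.41. Which step was the larger therefore depended on single arrays, while the stepwise order of means held for 26 to 30 members when any 1 array was left out.

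**Figure D3:**
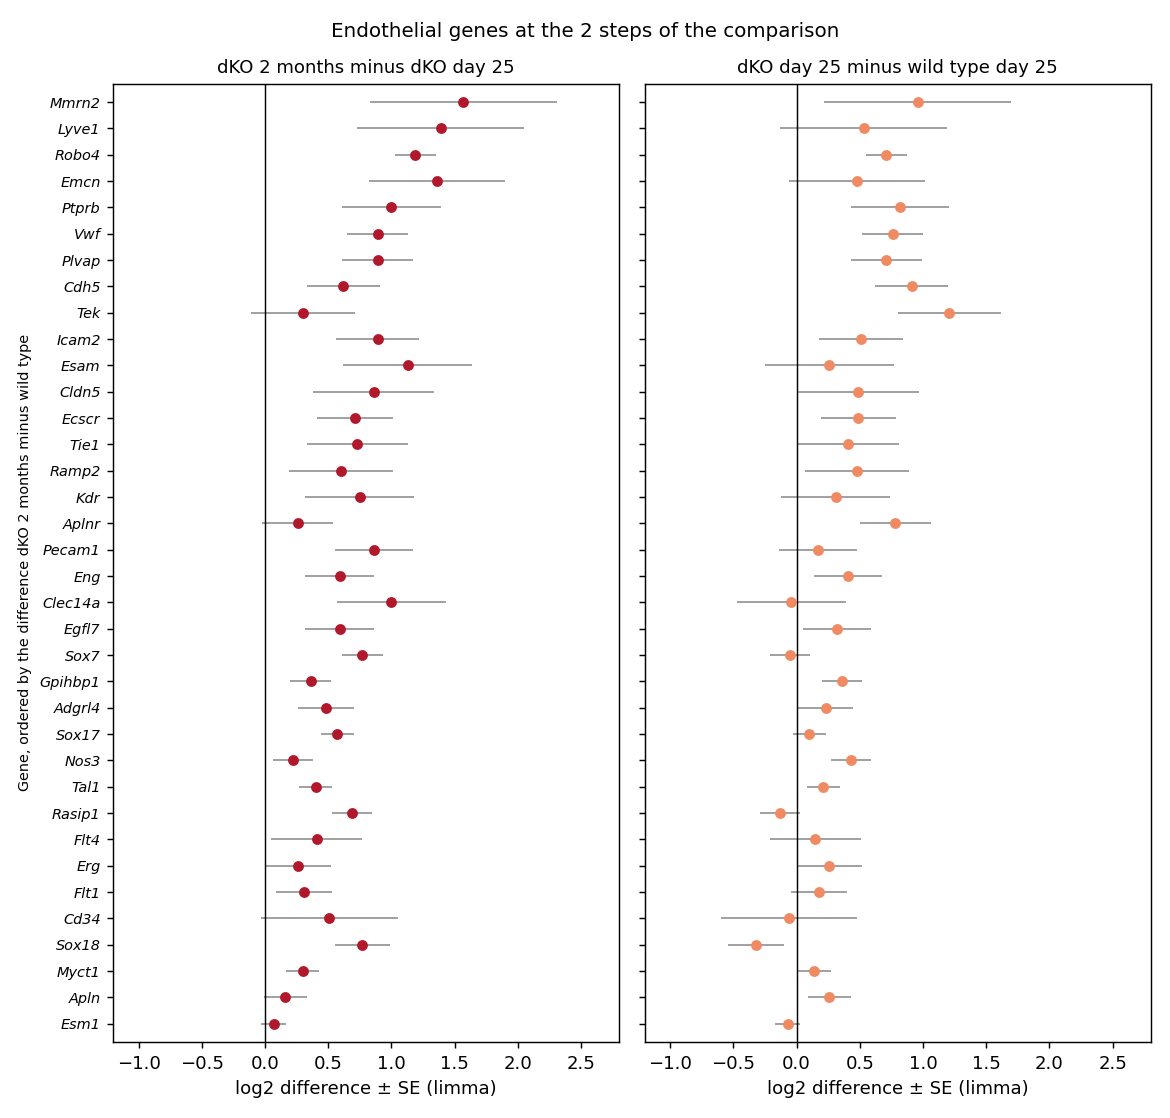
Log2 difference with its SE from limma for each of the 36 endothelial genes, for dKO 2 months minus dKO day 25 and for dKO day 25 minus wild type. In the first comparison all 36 points lie above 0, with a median of 0.66, and in the second 30 lie above 0, with a median of 0.34.

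The array of dKO 2-month replicate 1 held the highest value of 30 of the 36 endothelial genes, against 28.9% of all genes, and replicate 2 of the same group that of 5, Apln, Aplnr, Erg, Flt1 and Sox18. Replicate 1 exceeded replicate 2 by a median of 0.66 on the log2 scale, against -0.01 over all genes, and by more than 2-fold for 6 members, against 2.91% of all genes. The 2 arrays of the group thus differed for these genes by as much as the dKO ages did. Replicate 2 alone was above both wild-type arrays for 33 members, against 42.9% of all genes, and above both dKO day 25 arrays for 28, against 35.0%. Set against single arrays, its median was 0.68 above wild-type replicate 1, 0.55 above wild-type replicate 2, 0.52 above dKO day 25 replicate 1 and 0.17 above dKO day 25 replicate 2.

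Named genes kept their sign against wild type without that array. Between dKO at 2 months and wild type, the log2 difference without replicate 1 was 1.79 for Robo4, 1.42 for Vwf, 1.30 for Plvap, 1.11 for Cdh5 and 0.57 for Pecam1, each still positive. Between the dKO ages it was 1.08 for Robo4, 0.66 for Vwf, 0.60 for Plvap, 0.20 for Cdh5 and 0.40 for Pecam1. Kdr had 0.19 between the dKO ages without that array, and Tek turned to -0.09. These values rest on 1 array at 2 months, whose spread was taken to be that of the other groups.

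Endothelial genes outside the 36 differed less evenly. Of 45 measured, 37 had a higher mean in dKO at 2 months than in wild type, with 19 higher and 2 lower at a p under 0.05 before adjustment, 0 after adjustment in limma, and a median log2 difference of 0.48. Over all genes 55.0% were higher, and 9.54% were higher at that p. Without dKO 2-month replicate 1, 36 were higher, against 59.6% of all genes, with a median of 0.58. At day 25, 34 of the 45 were higher in dKO than in wild type, 4 of them at an unadjusted p under 0.05, against 54.7% and 4.89% of all genes. Between the dKO ages 33 were higher, 5 at that p with 3 lower, against 52.8% and 3.73% of all genes higher. In this comparison 32 were higher without dKO 2-month replicate 1, against 53.3% of all genes, with a median log2 difference of 0.18. Tm4sf1, a membrane protein abundant on endothelium, had 713 and 478 in dKO at 2 months and 290 and 304 in dKO at day 25, against 157 and 144 in wild type. Its steps were alike in size, and the difference between dKO at 2 months and wild type was 1.95 ± 0.21 (SE), adjusted p = 0.139.

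Nrp1, a co-receptor for VEGF that is also present on other cells, had 2814 and 1659 in dKO at 2 months and 689 and 1137 in dKO at day 25, against 490 and 370 in wild type, a difference of 2.34 ± 0.37 (SE) at 2 months, adjusted p = 0.192. Ets1, an ETS factor shared with lymphocytes, had 425 and 296 in dKO at 2 months and 190 and 271 in dKO at day 25, against 141 and 103 in wild type. Stab2, a scavenger receptor of sinusoids and lymphatics, had 47 and 66 in dKO at 2 months and 37 and 33 in dKO at day 25, against 28 and 30 in wild type. None of these 4 overlapped between the 3 groups, an order without overlap that 4.22% of all genes kept. These 4 genes were named for their small p between dKO at 2 months and wild type. That choice favours genes whose arrays separate, so their separation does not describe the rest of their list. How many genes of that list had no overlap is not given here.

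Markers of other cells were high on some of the same arrays as the endothelial genes, and their part in the result was not tested. The summed intensity of the 36 endothelial genes was 11133 and 7201 in dKO at 2 months and 4454 and 6470 in dKO at day 25, against 4198 and 4264 in wild type. The sum of 16 measured leukocyte markers was 20729 and 6731 in dKO at 2 months and 9698 and 5576 in dKO at day 25, against 2126 and 4182 in wild type. All 16 had a higher mean in dKO at 2 months than in wild type, 9 at an unadjusted p under 0.05, against 55.0% and 9.54% of all genes, and all 16 were highest on dKO 2-month replicate 1. Without that array 14 were higher, 1 of them at that p, against 59.6% and 7.74% of all genes, and the median log2 difference was 0.94, against 1.78 with it. Within dKO at day 25, leukocyte markers summed higher on replicate 1 and endothelial genes on replicate 2, a difference between single arrays that was not tested. C1qa, a complement gene of macrophages, had 1952 and 513 in dKO at 2 months and 723 and 387 in dKO at day 25, against 146 and 245 in wild type.

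Mural cells are the pericytes and smooth muscle around vessels. Their 12 markers summed to 22321 and 9425 in dKO at 2 months and 10247 and 12698 in dKO at day 25, against 6154 and 5134 in wild type, and 11 of 12 had a higher mean at 2 months than in wild type, 4 at an unadjusted p under 0.05, against 55.0% and 9.54% of all genes. Without dKO 2-month replicate 1, 11 were still higher than in wild type, against 59.6% of all genes, with a median log2 difference of 0.59. Acta2, the actin of smooth muscle, had 14836 and 5453 in dKO at 2 months and 6472 and 7864 in dKO at day 25, against 3534 and 2831 in wild type. The mural sum and Acta2 were above wild type on all 4 dKO arrays, and dKO 2-month replicate 2 was below both dKO day 25 arrays, unlike the endothelial sum. Acta2 gave 5453 of the 9425 of the mural sum on that array, so the 2 are not separate results. The median centred log2 level over the 12 markers was 0.01 on that array, between the -0.02 and 0.40 of dKO at day 25. Pdgfrb was highest on it, at 1324, against 732 and 1047 in dKO at day 25.

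The median log2 difference between the dKO ages was 0.66 for the endothelial genes, 0.64 for the leukocyte markers with 16 of 16 higher, 0.74 for 8 surface epithelium markers with 8 of 8 higher, and 0.09 for the mural markers with 9 of 12 higher, where 52.8% of all genes were higher. Leaving out dKO 2-month replicate 1 gave 0.35 for the endothelial genes with 35 of 36 higher. The leukocyte markers then had -0.04 with 5 of 16 higher, the surface epithelium markers 0.22 with 5 of 8 higher, and the mural markers -0.13 with 4 of 12 higher, where 53.3% of all genes were higher. A rise without that array was not confined to the endothelial genes. The 6 theca markers had 1.01 with 4 higher, and 0.89 with 3 higher when all arrays were used. Without that array the 45 other endothelial genes had 0.18 with 32 higher, and the 6 platelet markers 0.07 with 5 higher. A higher level in dKO at day 25 was not confined to endothelial genes either. With all arrays the median log2 difference from wild type there was 0.34 for them, against 0.03 over all genes. It was 1.14 for oocyte, 0.85 for leukocyte, 0.82 for erythrocyte, 0.63 for mural and 0.36 for stromal markers. The other endothelial genes had 0.35. Lower medians were 0.25 for surface epithelium, 0.22 for theca, 0.09 for granulosa and 0.1 for platelet markers, and 0.18 for endothelial ligands.

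Stromal markers were flatter in their sum. The 12 genes summed to 38283 and 25876 in dKO at 2 months and 27702 and 32829 in dKO at day 25. In wild type they summed to 28080 and 22176. Between dKO at 2 months and wild type their median log2 difference was 0.13, with 8 of 12 higher, against 55.0% of all genes. At day 25 it was 0.36 with 9 of 12 higher, against 54.7% of all genes, beside 0.34 for the endothelial genes. The 11 granulosa markers had a median log2 difference of 0.14 between dKO at 2 months and wild type. Oocyte markers ran the other way on the outlying array, where 11 of 11 measured had their lowest value. They summed to 6714 and 39949 in dKO at 2 months and 49622 and 72364 in dKO at day 25, against 34445 and 20928 in wild type. No list had a member at 0, since the lowest value on any array was 6.

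**Figure D4:**
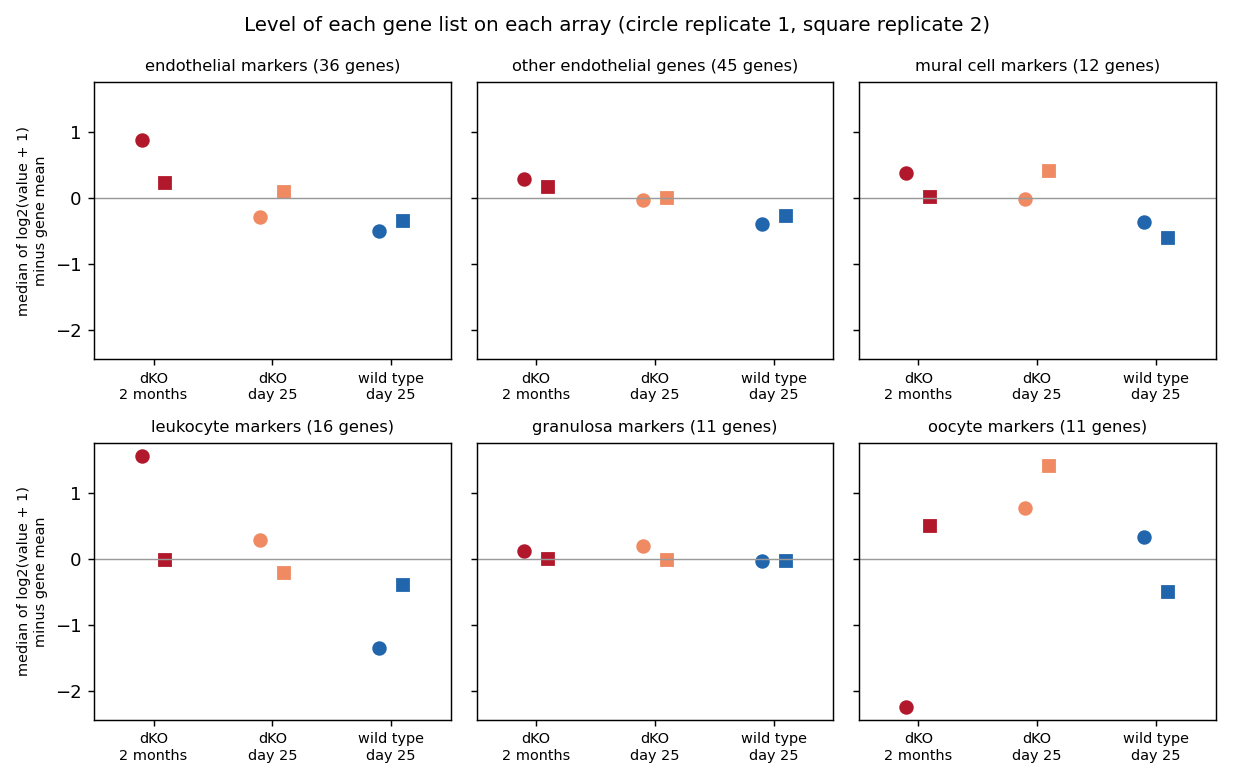
Median over each gene list of log2(value + 1) minus the gene's mean over the 6 arrays, on every array, with circles for replicate 1 and squares for replicate 2. Endothelial genes sit at 0.88 and 0.22 in dKO 2 months and at -0.29 and 0.09 in dKO day 25, against -0.50 and -0.35 in wild type, and leukocyte markers have their highest point, 1.56, on dKO 2-month replicate 1.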

How the data were processed

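Total RNA of granulosa cells was labelled with biotin and hybridised, with 1 Affymetrix array for every sample, per the labels' protocols. The table the authors deposited holds linear intensity for each probe set as whole numbers. The submitters' processing notes name affy and RMA. Their versions, the genome build and the return from the log2 scale of RMA are not given in the sources used here. Of 45101 probe sets, 64 controls were left out. By the platform annotation 34945 of the remaining 45037 had 1 gene symbol, 932 several and 9160 none, which gave 18193 genes. All 36 members were matched to RefSeq by gene ID.

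Log2(value + 1) of the deposited intensity was fitted in limma 3.58.1 (R 4.3.3) with 1 mean for each of 3 groups of 2 arrays, which left 3 residual degrees of freedom, and two-sided contrasts were adjusted by Benjamini-Hochberg over all 45037 probe sets. The script was tested on simulated data. Precision is limited by the number of arrays. Fold changes of dim genes are understated on this scale. Values on every array with tests were given for Cdh5, Pecam1, Kdr, Flt1, Tek, Tie1, Robo4, Emcn, Sox17, Vwf and the 4 members of smallest p in each contrast, and for others array values, counts or ranges. From the other lists up to 4 genes of smallest p between dKO at 2 months and wild type could be named. The members and lists (other endothelial genes, endothelial ligands, mural, stromal, leukocyte, platelet, erythrocyte, granulosa, theca, oocyte and surface epithelium markers) were chosen with earlier results of these data known. Promoter windows came from RefSeq on GRCm38.p6, searched on both strands. Alternatives were array centring, quantile normalization, a pseudocount of 16, a filter at a mean log2 of 6, a trended robust prior, 4-array fits, other choices of probe set, a replicate block and leaving out each array.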

Additional observations from a re-analysis of the deposited data

How the results depend on the processing

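In limma 0 endothelial genes passed an adjusted p of 0.05 under every alternative run. The alternatives gave 7 reversals among values of single named genes and left 641 on the same side. Among the counts and medians, 17 values were marked as moved from the main fit and 283 as the same. Counts at an unadjusted p under 0.05 were among those that moved. Same-numbered arrays did not deviate together (r of 0.0569 for dKO 2 months with dKO day 25, -0.208 for dKO 2 months with wild type and -0.159 for dKO day 25 with wild type). The labels do not say whether the numbers pair the samples, and these values cannot settle it. With the replicate number as a block, fewer members were higher with an unadjusted p under 0.05. They were 3 between dKO at day 25 and wild type and 6 between the dKO ages. The share of all genes at that p in this fit is not given here. With the wild-type numbers exchanged in the block, an alternative chosen after seeing the data, 0 members passed after adjustment. Leaving out each array in turn, the unadjusted count ranged from 10 to 25 between dKO at 2 months and wild type, from 1 to 8 between dKO at day 25 and wild type, and from 4 to 23 between the dKO ages. The median difference between dKO at 2 months and wild type ranged from 0.63 to 1.36, and the median difference between the steps from -0.09 to 0.75. Signs turned for Tek between the dKO ages (-0.18 to 0.78) and, between dKO at day 25 and wild type, for Sox7 (-0.15 to 0.05), Flt1 (-0.12 to 0.48) and Emcn (-0.05 to 1.0). Sox7 was also at 0.09 there with the mean of its probe sets. These reversals follow from fewer arrays or other probe sets. Of 24 other probe sets of 15 members, 23 had the sign of the one used between dKO at 2 months and wild type, 20 between dKO at day 25 and wild type and 21 between the dKO ages. The other lists and the remaining members were also recomputed without dKO 2-month replicate 1, an alternative chosen after seeing the data. Depth is not given by arrays, and dim genes such as Esm1 and Rasip1 are limited by background.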

Other observations

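Ligands of endothelial receptors, many of them made by other cells, were mixed. Of 12 measured, 8 had a higher mean in dKO at 2 months than in wild type, 2 at an unadjusted p under 0.05 and 0 after adjustment in limma, against 55.0%, 9.54% and 0.0% of all genes. Without dKO 2-month replicate 1, 8 were higher, against 59.6% of all genes, with a median log2 difference of 0.1. Angpt2, an angiopoietin that can antagonise TEK, had 5065 and 748 in dKO at 2 months and 1109 and 1060 in dKO at day 25, against 268 and 351 in wild type. Angptl4, an inhibitor of lipoprotein lipase, had 3642 and 2905 in dKO at 2 months and 2795 and 2403 in dKO at day 25, against 1159 and 2001 in wild type.

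Blood cell markers other than leukocyte genes were mostly dim. The 6 platelet markers summed to 920 and 895 in dKO at 2 months and 863 and 920 in dKO at day 25, against 925 and 711 in wild type. The sum hides genes that ran in opposite directions. By mean, 5 were higher and 1 lower in dKO at 2 months than in wild type, against 55.0% of all genes higher. Pf4 had 352 and 198 in dKO at 2 months and 197 and 176 in dKO at day 25, against 138 and 125 in wild type. Itgb3, the lower one, had 229 and 375, then 358 and 442, against 472 and 275. The 3 measured erythrocyte markers summed to 789 and 444 in dKO at 2 months and 421 and 362 in dKO at day 25, against 170 and 179 in wild type, and most of each sum was Alas2. Hba-a1 was flat, with 19 and 19 in dKO at 2 months and 16 and 19 in dKO at day 25, against 18 and 22 in wild type. Slc4a1 had 172 and 27 in dKO at 2 months and 41 and 54 in dKO at day 25, against 23 and 30 in wild type. Alas2, the first enzyme of haem synthesis in red cell precursors, had 598 and 398 in dKO at 2 months and 364 and 289 in dKO at day 25, against 129 and 127 in wild type, a log2 difference of 1.92 ± 0.23 (SE) at 2 months, adjusted p = 0.139 in limma.

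The 6 measured theca markers summed to 22050 and 23918 in dKO at 2 months and 3757 and 11077 in dKO at day 25, against 6055 and 5213 in wild type. Cyp17a1, the enzyme of theca androgen synthesis, had 12804 and 15028 in dKO at 2 months and 389 and 5073 in dKO at day 25, against 1275 and 1509 in wild type. It made up most of the sum at 2 months. By mean, 5 of the 6 were higher in dKO at 2 months than in wild type, against 55.0% of all genes. Between the dKO ages 3 were higher and 3 lower, against 52.8% of all genes higher. Ptch1 had 2613 and 2114 in dKO at 2 months and 2259 and 2788 in dKO at day 25, against 3787 and 1928 in wild type. The 8 surface epithelium markers summed to 5116 and 3569 in dKO at 2 months and 2841 and 3367 in dKO at day 25, against 2784 and 2639 in wild type.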
